A study of Mus musculus with 2 samples.

Results

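The vomeronasal receptor gene clusters were examined in mouse embryonic fibroblasts (MEFs) as 5 blocks of the mm9 genome build. Of these, 2 lie on chromosome 7 (7.28 to 10.77 Mb and 20.68 to 24.09 Mb), 2 on chromosome 6 (56.7 to 58.1 Mb and 89.7 to 90.5 Mb) and 1 on chromosome 13 (22.2 to 23.5 Mb). All array probes that start inside these bounds are members, 1386 of 174638 probes, in 212 of 22170 tiled regions. A tiled region is a set of probes whose starts lie less than 1000 bp apart. The blocks were chosen by their low ratios on these same 2 arrays and by their positions, so the ratios below are a description and carry no test. The files name no gene for any probe, so the label rests on position alone.

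An antibody against 5-methylcytosine was used to pull down methylated DNA from thymidine-treated and from untreated cells, 1 array each. The treated cells were MEFs of strain C57BL/6 kept for 2 days in medium with 100 µM thymidine, a DNA nucleoside, and their source label names a sort by CD45, a surface protein of blood cells. The untreated cells were MEFs of the same strain with no agent. Both came from E14.5 embryos, had been cleared of cells positive for c-Kit, CD31, CD41 or CD45, and were seeded on mitomycin-treated MEF feeder layers, whose removal the labels do not mention. The precipitate carried Cy5 and the input DNA carried Cy3 on both arrays, and the labels describe the input of the treated array as MEFs in its source name but as thymidine-treated elsewhere. With 1 array per group there is no replicate check, no test was made, and the treatment, the sort, the slide and the origin of the input cannot be told apart. DNA arrays do not show whether the cultured cells carried fibroblast or blood markers.

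Vomeronasal receptors are the pheromone receptors of the vomeronasal organ, a sensory structure of the rodent nose. The V1R family (Vmn1r genes) couples to the G protein subunit encoded by Gnai2 and the V2R family (Vmn2r genes) to that encoded by Gnao1, and both signal through the channel encoded by Trpc2. A sensory neuron of the organ expresses a very small part of the repertoire. The genes stand in tandem clusters that grew by repeated duplication and hold many pseudogenes, and recent copies can be nearly identical. In mammalian fibroblasts cytosine methylation lies mostly at CG, so the precipitate of a fragment depends both on its methylation and on how many CG it holds.

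The promoter sequences of these genes show both properties, few CG and near-identical copies. RefSeq promoter windows of build GRCm38.p6, which run from 250 bases before to 50 bases after a gene's start, were at hand for 248 of 273 Vmn1r and Vmn2r protein-coding genes of chromosomes 6, 7 and 13. This is another build than that of the array, and no probe was assigned to a window. The genes were taken by symbol over the whole of these chromosomes, so the windows are not limited to the 5 blocks. The first 4 windows are those with the most and the fewest CG on chromosome 7, where the ratios were lowest, and on chromosome 6. Capitals mark CG, and each sequence is written 5′ to 3′ on the gene's strand.
Vmn2r29, chr7:7278240-7278539, minus strand, 23 CG: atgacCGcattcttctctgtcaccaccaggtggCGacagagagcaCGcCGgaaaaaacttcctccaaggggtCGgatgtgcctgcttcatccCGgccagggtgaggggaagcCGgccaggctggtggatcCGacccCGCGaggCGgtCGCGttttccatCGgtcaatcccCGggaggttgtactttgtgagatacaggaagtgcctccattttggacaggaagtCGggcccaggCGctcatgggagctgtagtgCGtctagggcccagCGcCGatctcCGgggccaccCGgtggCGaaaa
Vmn1r180, chr7:23952137-23952436, plus strand, 0 CG: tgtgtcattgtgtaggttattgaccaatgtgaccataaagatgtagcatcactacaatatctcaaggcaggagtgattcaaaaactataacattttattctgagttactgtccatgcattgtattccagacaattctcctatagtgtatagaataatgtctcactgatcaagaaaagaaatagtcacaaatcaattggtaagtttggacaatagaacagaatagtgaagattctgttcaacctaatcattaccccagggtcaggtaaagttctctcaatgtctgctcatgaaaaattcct
Vmn1r54, chr6:90268856-90269155, plus strand, 6 CG: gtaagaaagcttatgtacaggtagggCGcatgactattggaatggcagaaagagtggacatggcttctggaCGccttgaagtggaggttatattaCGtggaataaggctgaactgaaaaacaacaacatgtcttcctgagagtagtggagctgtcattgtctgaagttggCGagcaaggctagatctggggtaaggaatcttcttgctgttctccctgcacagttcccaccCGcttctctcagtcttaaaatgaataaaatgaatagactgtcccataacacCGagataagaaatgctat
Vmn1r11, chr6:57137103-57137402, plus strand, 0 CG: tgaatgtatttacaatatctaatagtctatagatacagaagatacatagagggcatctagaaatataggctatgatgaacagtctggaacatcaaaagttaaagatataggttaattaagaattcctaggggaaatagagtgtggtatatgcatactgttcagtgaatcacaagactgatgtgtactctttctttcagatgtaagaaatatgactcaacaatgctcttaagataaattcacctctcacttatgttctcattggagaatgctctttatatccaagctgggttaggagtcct
On chromosome 13 the number of CG ran between 5 in Vmn1r216 and 0 in Vmn1r193.

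The motif CG, which reads the same on both strands, was scarce in this gene family. The 249 windows held a median of 1 CG (quartiles 1 and 2), against 7 (3 and 20) over all 32851 mouse promoter windows. At least 1 CG was present in 79.1% of the vomeronasal windows and in 94.6% of all windows. The windows without CG made up 14.0% of 164 on chromosome 7, 39.6% of 53 on chromosome 6 and 25% of 32 on chromosome 13. How many CG the probes or their surroundings hold was not tested. The comparison lists gave higher medians, with 24 CG for 7 of 8 housekeeping genes and 8 for 13 windows of 5 of 6 imprinted genes. Windows were at hand for 2 of 4 genes that act with these receptors (Trpc2, Gnai2, Gnao1, Omp). They held 4 and 42 CG, with a median of 23.

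Copies of the promoters were concentrated on chromosome 7. Among its 115 Vmn1r windows, 52 were identical over all 300 bases to the window of at least 1 other Vmn1r gene. Whole windows were compared only among these 115, so this count has no counterpart on other chromosomes or over all promoters. The closest pair that was not identical is shown here because it differs at 1 base, which is in capitals.
Vmn1r111, chr7:20703167-20703466, minus strand: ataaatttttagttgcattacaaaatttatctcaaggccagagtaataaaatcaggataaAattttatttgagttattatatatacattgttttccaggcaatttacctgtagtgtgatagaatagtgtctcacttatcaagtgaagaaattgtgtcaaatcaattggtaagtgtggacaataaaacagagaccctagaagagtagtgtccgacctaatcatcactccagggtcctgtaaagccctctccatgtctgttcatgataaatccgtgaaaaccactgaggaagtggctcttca
Vmn1r242, chr7:20233779-20234078, minus strand: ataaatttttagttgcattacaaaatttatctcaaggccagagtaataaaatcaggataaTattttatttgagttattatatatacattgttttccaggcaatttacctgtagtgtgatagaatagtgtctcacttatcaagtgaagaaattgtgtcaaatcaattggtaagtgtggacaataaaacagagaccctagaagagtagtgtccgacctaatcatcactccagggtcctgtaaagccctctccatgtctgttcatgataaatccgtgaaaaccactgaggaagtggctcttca
Stretches of 45 bases, the shortest probe length on the array, were found in the window of another gene, on either strand, for a median of 59.8% of each chromosome 7 window. The median was 0% on chromosomes 6 and 13 and over all promoters. Windows with more than 50% of such stretches numbered 85 of 164 on chromosome 7, 4 of 53 on chromosome 6 and 2 of 32 on chromosome 13, against 10.2% of all windows. RefSeq lists 178 protein-coding Vmn1r and Vmn2r genes and 103 pseudogenes on chromosome 7, 60 and 36 on chromosome 6, and 36 and 53 on chromosome 13. The 36 include Vmn1r-ps103, which RefSeq lists as protein-coding under a pseudogene symbol and which is not among the 273 genes above. Probe sequences were not used here, so how many places in the genome a probe matches is unknown.

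The ratio in all that follows is log2(Cy5/Cy3) of the scanner's processed signals, centred on the array's median, so 0 is the typical probe. Probes were kept when, on both arrays, the input signal was flagged well above background and no outlier flag was set, which left 1187 of the 1386 probes (85.6%, against 81.6% of the whole array). The share kept was uneven, with 228 of 233 and 483 of 485 probes in the chromosome 7 blocks, 149 of 239 and 133 of 164 in the chromosome 6 blocks and 194 of 265 in the chromosome 13 block. Both channels were well above background on both arrays for only 304 of the 711 kept chromosome 7 probes (42.8%), against 343 of 476 (72.1%) in the chromosome 6 and 13 blocks and 83.0% of all other probes. No probe was saturated.

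Precipitate signal relative to input was far below the array median in the chromosome 7 blocks and slightly below it in the other blocks. In the first chromosome 7 block the median ratio was -2.22 in treated and -2.43 in untreated cells, and in the second block it was -2.59 in treated and -2.92 in untreated cells. The first chromosome 6 block had -0.38 in treated and -0.41 in untreated cells, and the second had -0.25 in treated and -0.39 in untreated cells. The chromosome 13 block had -0.27 in treated and -0.40 in untreated cells. All other probes of the array had a median of 0.01 on both arrays. The interquartile range of the second chromosome 7 block, -3.57 to -1.55 in treated and -3.90 to -1.88 in untreated cells, lay wholly below that of all other probes, -0.48 to 0.47 in treated and -0.57 to 0.46 in untreated cells. The ranges of the chromosome 6 and 13 blocks overlapped it.

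**Figure D1:**
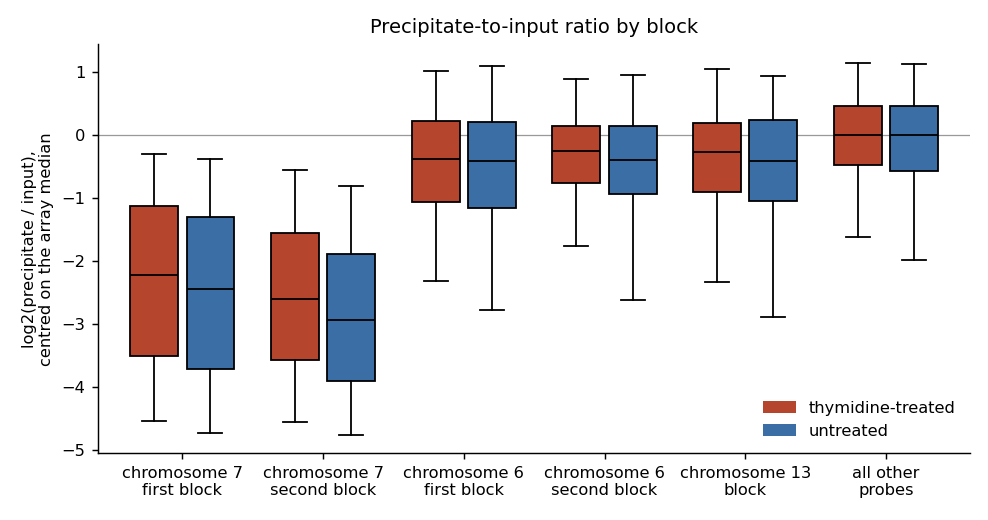
Probe ratios, log2(precipitate/input) centred on the array median, for each block and for all other probes, with thymidine-treated cells left of untreated cells. Boxes span the quartiles with the median as a line, and whiskers run from the 5th to the 95th percentile. Medians are at -2.22 to -2.92 in the chromosome 7 blocks and at -0.25 to -0.41 in the other 3.

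Probes at a ratio of -1 or less show the same contrast. In treated cells they made up 76.8% and 85.3% of the kept probes in the chromosome 7 blocks, 25.5% and 17.3% in the chromosome 6 blocks and 21.6% in the chromosome 13 block, against 11.3% of the whole array. In untreated cells the shares were 78.9%, 90.3%, 28.2%, 20.3% and 25.3% in the same order, against 15.0%. Ratios above 0 were rare on chromosome 7, at 7 of 711 probes in treated and 4 of 711 in untreated cells. The chromosome 6 and 13 blocks had 155 of 476 in treated and 159 of 476 in untreated cells. Among all other probes the share above 0 was 50.3% on both arrays. Counted by region, all 120 measured regions of the chromosome 7 blocks averaged -1 or less over the 2 arrays, as did 5 of 28 and 2 of 21 in the chromosome 6 blocks and 4 of 35 on chromosome 13, where 4.22% of all regions did. A measured region holds at least 3 kept probes. Since low ratios chose the blocks, these counts and the contrast among the 5 are a description only. On the remainder of these chromosomes the median ratio was -0.04 in treated and -0.06 in untreated cells on chromosome 7, -0.01 in treated and -0.02 in untreated cells on chromosome 6, and -0.02 in treated and 0.00 in untreated cells on chromosome 13.

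The low ratios on chromosome 7 came with a dim precipitate and a bright input. The median processed precipitate intensity in the second chromosome 7 block was 181 in treated and 171 in untreated cells, against 835 in treated and 773 in untreated cells for all other probes. Relative to the array median the precipitate stood at -2.08 and -2.20 (log2) in the first and second blocks in treated cells, and at -2.18 and -2.17 in untreated cells. The median input intensity of the second block was 1394 in treated and 1471 in untreated cells, against 789 in treated and 742 in untreated cells for all other probes. On the log2 scale the input was above the array median by 0.50 and 0.82 in the first and second blocks in treated cells and by 0.72 and 0.98 in untreated cells. In the chromosome 6 and 13 blocks the input was instead below it, by medians of -0.27 to -0.51 in treated and -0.16 to -0.51 in untreated cells. By region, input was above the array median on both arrays in 107 of 120 measured chromosome 7 regions, in 21 of 84 regions of the chromosome 6 and 13 blocks, and in 45.4% of all other regions.

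**Figure D2:**
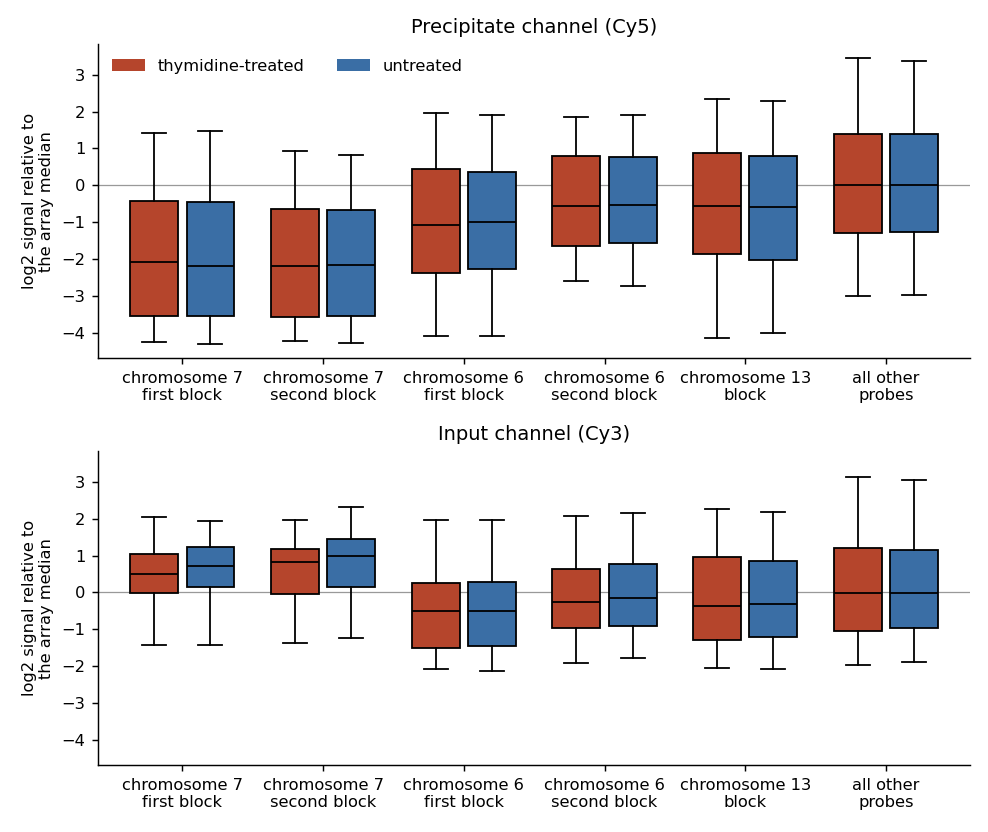
Signal of the precipitate (top) and of the input (bottom) for each block and for all other probes, as log2 relative to the array median, with treated left of untreated cells. Boxes, lines and whiskers are quartiles, medians and the 5th and 95th percentiles. The chromosome 7 blocks are low in the precipitate, near -2.1, and above 0 in the input.

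Because so many precipitate signals were near background, the size of the chromosome 7 ratios is a bound rather than a value. When each precipitate signal was raised to the lowest one that counted as well above background on its array, the input of the second block still exceeded the precipitate, relative to the typical probe, by at least 3.62-fold in treated and 4.53-fold in untreated cells at the median probe. The first block gave at least 2.92-fold in treated and 3.68-fold in untreated cells. Among the probes with both channels well above background on both arrays, the median ratio was -1.13 in treated and -1.39 in untreated cells in the first block, and -1.42 in treated and -1.78 in untreated cells in the second. The same probes of the first chromosome 6 block were at -0.02 in treated and 0.01 in untreated cells, and those of the chromosome 13 block at -0.11 in treated and -0.09 in untreated cells, against 0.14 and 0.15 for all other such probes. The error that the scanner software gives a single ratio was larger in the chromosome 7 blocks, with a median of 0.37 in treated and 0.38 in untreated cells, against 0.24 for all other probes on both arrays.

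Probes in the blocks were long. The array's probes are 45 to 60 bases long, and the median was 59 and 58 bases in the chromosome 7 blocks, 58 and 50.5 in the chromosome 6 blocks and 55 in the chromosome 13 block, against 45 elsewhere. Probes of 60 bases made up 47.6%, 41.0%, 43.5%, 26.2% and 35.5% of the 5 blocks in that order and 12.98% of all other probes. Longer probes had lower ratios throughout the array, with medians at 60 bases of -0.46 in treated and -0.51 in untreated cells, and of 0.16 at 45 bases on both arrays, over probes outside the blocks. At 45 bases the 37 probes of the chromosome 7 blocks had -1.30 in treated and -1.73 in untreated cells, and at 60 bases the 306 probes had -2.997 in treated and -3.37 in untreated cells. The 127 probes of 45 bases in the chromosome 6 and 13 blocks had -0.02 in treated and 0.00 in untreated cells, and the 88 probes of 60 bases had -0.80 in treated and -0.81 in untreated cells. At equal length, then, the chromosome 7 blocks lay below other probes in each of the 5 length classes, with a wider gap at 60 than at 45 bases.

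Input showed the opposite pattern at equal length. At 45 bases it was at 1.62 in treated and 1.83 in untreated cells in the chromosome 7 blocks, against 0.55 in treated and 0.51 in untreated cells for other probes. At 60 bases it was at 0.03 in treated and 0.26 in untreated cells, against -1.26 in treated and -1.17 in untreated cells for other probes. The chromosome 6 and 13 blocks had 0.48 in treated and 0.52 in untreated cells at 45 bases, and -1.17 in treated and -1.06 in untreated cells at 60 bases. Whether probe length, base composition or the number of genomic matches has a part in the low ratios was not tested.

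**Figure D3:**
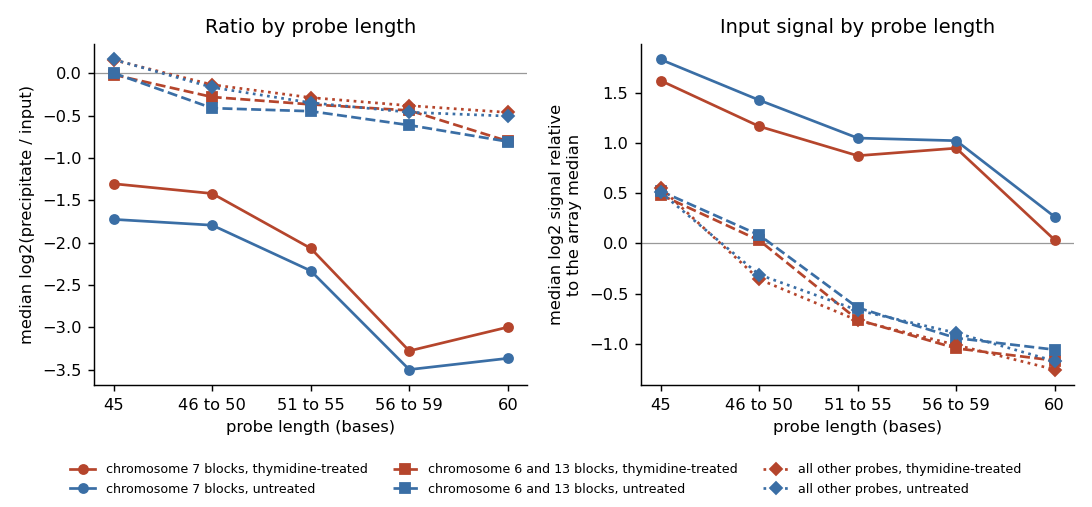
Median ratio (left) and median input signal relative to the array median (right) by probe length, for the chromosome 7 blocks, the chromosome 6 and 13 blocks and all other probes. The chromosome 7 blocks are below the others in ratio and above them in input in every length class.

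At the edges of the chromosome 7 blocks the ratio was lower inside than outside. Since low ratios on these arrays helped to choose the blocks, this is a description and no separate result. The 4 outside regions held 5, 3, 4 and 4 kept probes, in the order given below. Of these, 5, 3, 1 and 2 had both channels well above background on both arrays. At the upper edges the SD among the probes inside was 1.15 in treated and 1.25 in untreated cells in the first block. In the second block it was 1.11 in treated and 1.40 in untreated cells. The first region inside the lower edge of the first block, chr7:7289705-7291328, was at -3.29 in treated and -3.17 in untreated cells, and the nearest region outside, whose start is 37.9 kb away at 7251798, was at -0.34 in treated and -0.25 in untreated cells. At its upper edge the last region inside, from 10761136, had -1.20 in treated and -1.85 in untreated cells, and the next outside, from 10860209, had -0.27 in treated and -0.85 in untreated cells. The second block began with -3.25 in treated and -3.99 in untreated cells at 20685501, against -0.34 in treated and -0.46 in untreated cells outside at 20592224. It ended with -0.93 in treated and -1.24 in untreated cells at 24084911, against -0.25 in treated and -0.21 in untreated cells outside at 24170499. The edges of the chromosome 6 and 13 blocks showed no comparable drop on the inner side. At some of them the region outside was the lower, and at others the inside was lower by less than at any chromosome 7 edge. At the upper edge of the first chromosome 6 block the region outside, from 58165513, was the lower of the pair, at -1.40 in treated and -1.09 in untreated cells, against -0.51 in treated and -0.31 in untreated cells inside from 57958698. At its lower edge the inside region had 0.46 in treated and 0.32 in untreated cells, and the outside region 0.08 in treated and 0.46 in untreated cells. The second chromosome 6 block had -0.39 in treated and -0.77 in untreated cells inside its lower edge, against -0.69 in treated and -1.08 in untreated cells outside. Inside its upper edge it had -0.17 in treated and -0.04 in untreated cells, against 0.25 in treated and 0.04 in untreated cells outside. The chromosome 13 block had 0.12 in treated and 0.25 in untreated cells inside its lower edge, against -0.27 in treated and -0.96 in untreated cells outside. Inside its upper edge it had -0.08 in treated and -0.33 in untreated cells, against 0.08 in treated and 0.00 in untreated cells outside.

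Within the blocks the regions differed widely among themselves. Region medians in the chromosome 7 blocks ran from -4.26 to -0.77 in treated and from -3.99 to -1.17 in untreated cells, and those of the chromosome 6 and 13 blocks from -2.38 to 0.56 in treated and from -2.22 to 0.72 in untreated cells. Across the 711 kept chromosome 7 probes the correlation between the arrays was 0.97, and across the 476 of the other blocks it was 0.94. Those probes share their sequence, length and signal level on both arrays, so the values describe the probes as much as the cells. The SD among the probes of 1 region had a median of 1.32 in treated and 1.37 in untreated cells on chromosome 7, 0.81 in treated and 0.94 in untreated cells in the other blocks, and 0.69 in treated and 0.76 in untreated cells elsewhere.

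**Figure D4:**
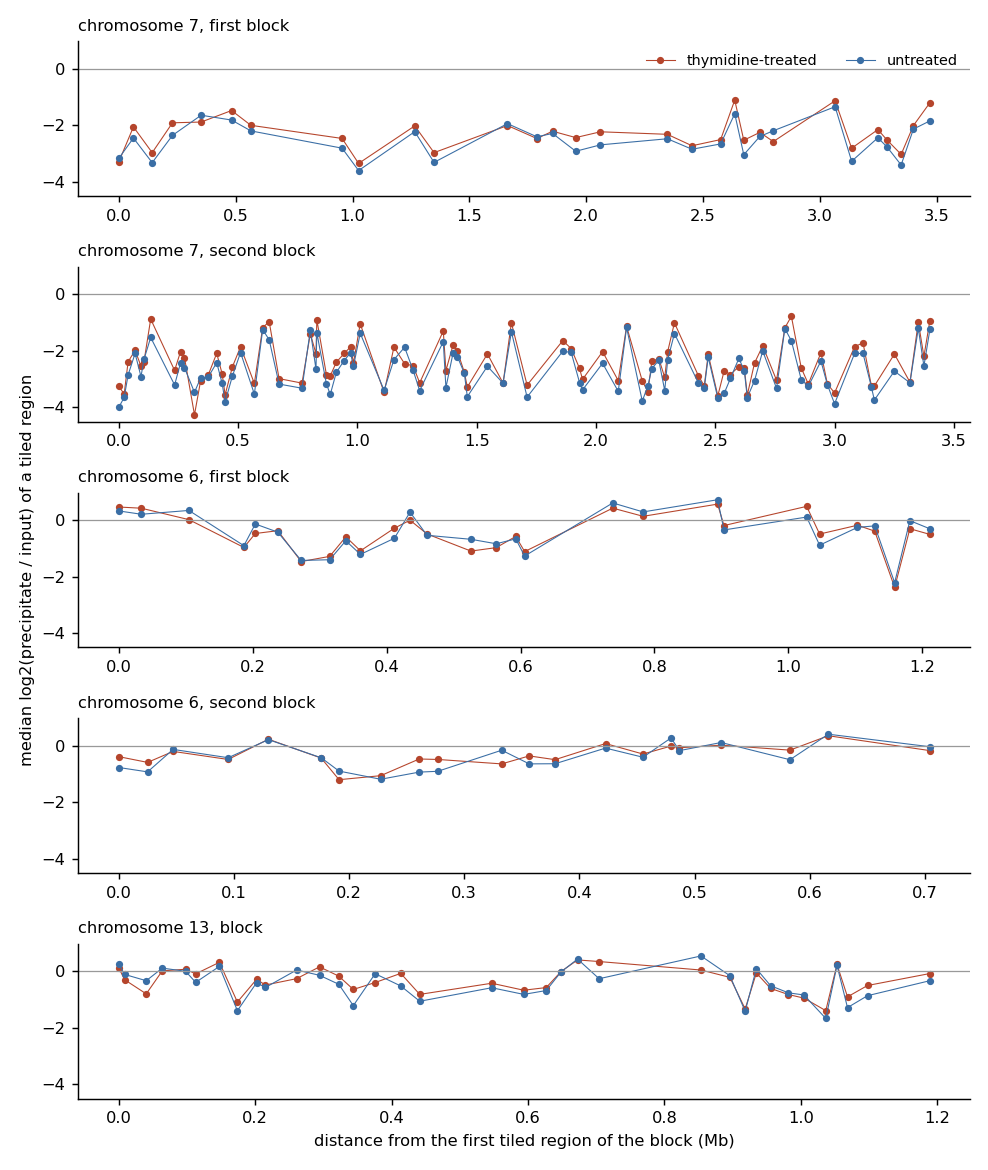
Median ratio of each measured region along the 5 blocks in treated and untreated cells, against the distance from the first region of the block. All chromosome 7 regions lie below 0 on both arrays, while regions of the other blocks lie on both sides of it.

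Ranked by the mean of both arrays, the lowest regions on chromosome 7 were chr7:21002259-21003705, at -4.26 in treated and -3.47 in untreated cells, and chr7:21130673-21131952, at -3.55 in treated and -3.81 in untreated cells. Of the 5 probes in each, only 1 and 2 were well above background in both channels on both arrays, so their order is not settled. By the same mean, the 2 least low regions of the second block lay at its end. They were chr7:24036276-24037383 at -0.98 in treated and -1.20 in untreated cells and chr7:24084911-24086631 at -0.93 in treated and -1.24 in untreated cells. The second of them had 6 of 6 such probes. A region well inside the block, chr7:21515150-21516629, was nearly as high, at -0.90 in treated and -1.35 in untreated cells. In the first block the lowest were chr7:8315709-8317461, at -3.35 in treated and -3.60 in untreated cells, and the edge region from 7289705 given above. Its least low were chr7:10355421-10357102, at -1.13 in treated and -1.35 in untreated cells with 7 of 8 such probes, and chr7:9925755-9927318, at -1.11 in treated and -1.59 in untreated cells.

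Some regions of the chromosome 6 and 13 blocks were above the array median. The highest by the mean of both arrays were chr6:57641583-57643195, at 0.56 in treated and 0.72 in untreated cells, and chr6:57484988-57486668, at 0.42 in treated and 0.60 in untreated cells. In the second chromosome 6 block chr6:90411321-90413078 had 0.35 in treated and 0.41 in untreated cells, and chr6:89924961-89926502 had 0.23 in treated and 0.21 in untreated cells. On chromosome 13 the highest by that mean were chr13:22943867-22945285, at 0.41 in treated and 0.44 in untreated cells, and chr13:23124907-23126650, at 0.05 in treated and 0.55 in untreated cells. Altogether 22 of the 84 regions had a mean ratio above 0, against 10890 of the 21314 regions outside the blocks. Low regions also occurred there, with chr6:57906026-57907793 at -2.38 in treated and -2.22 in untreated cells, chr6:57019589-57020989 at -1.47 in treated and -1.43 in untreated cells, chr6:90022513-90024111 at -1.06 in treated and -1.19 in untreated cells, chr6:89986337-89987829 at -1.20 in treated and -0.90 in untreated cells, chr13:23307947-23309550 at -1.39 in treated and -1.66 in untreated cells, and chr13:23189718-23191306 at -1.33 in treated and -1.41 in untreated cells.

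The tiling of the chromosome 7 blocks was itself repeated. In the second block, 56 of 90 regions with at least 3 probes (62.2%) had exactly the same spacing and lengths of probes as at least 1 other region, forming 22 sets of 2 copies and 4 sets of 3. In the first block 6 of 30 did (20%), in the chromosome 6 and 13 blocks none, and in the rest of the array 108 of 21778 (0.496%). In 16 of the 26 sets of the second block, copies lay 2189 to 2195 kb apart and in the same order along the chromosome. Only spacing and length were compared, and whether such probes have the same sequence was not tested.

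Regions of the same layout gave nearly the same ratios. Over 160 probe positions, the SD between copies was 0.24 in treated and 0.22 in untreated cells, against an SD of 1.32 in treated and 1.36 in untreated cells over all 711 probes of the chromosome 7 blocks. Where both channels were well above background in every copy (63 positions), it was 0.12 on both arrays. Between repeated spots of 19 control probes, the median SD of a probe was 0.11 in treated and 0.09 in untreated cells. That is another measure on other probes. For the input alone the SD between copies over the 160 positions was 0.08 in treated and 0.09 in untreated cells. By region, the copies of a set differed by a median of 0.14 in treated and 0.15 in untreated cells. The widest set was the pair that starts at 20943776 and 23139083, which differed by 1.21 in treated and 0.90 in untreated cells. Region counts in the text include every copy, and copies of 1 layout may not be independent. With the first copy only, the median over all blocks was -1.17 in treated and -1.45 in untreated cells, against -1.41 in treated and -1.71 in untreated cells with every copy.

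The ratio was slightly higher in treated than in untreated cells across the chromosome 7 blocks, and that direction depended on the scaling. The median difference, treated minus untreated, was 0.24 and 0.31 (log2) in the first and second chromosome 7 blocks, 0.04 and 0.13 in the chromosome 6 blocks and 0.10 on chromosome 13, against 0.06 for all other probes. It was above 0 in 30 of 30 and 89 of 90 regions on chromosome 7, in 16 of 28 and 16 of 21 on chromosome 6 and in 24 of 35 on chromosome 13, where 65.1% of all regions were. Between spots of the same control probe, the SD of the difference had a median of 0.14. Between copies of a chromosome 7 layout the SD of the difference was 0.23 over 160 probe positions. Both values describe single probes and not the spread between arrays or cultures. In the authors' deposited table the differences ran the other way, with medians of -0.14 and -0.09 in the chromosome 7 blocks and -0.05 for all other probes. They were also below 0 over all blocks with quantile normalisation (-0.054) and after the dependence on level was removed (-0.068).

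The input differed more than the precipitate. Relative to the array median, the input of the chromosome 7 blocks was lower in treated cells by medians of -0.18 and -0.22 in the first and second blocks, while the precipitate differed by 0.02 in both. Probes of equally low ratio elsewhere differed as much or more. At a mean ratio below -3 the median difference was 0.33 for 297 probes of the chromosome 7 blocks and 0.49 for 1348 other probes. Between -3 and -2 it was 0.31 against 0.51, and between -2 and -1 it was 0.29 against 0.31. In the classes nearer 0 the chromosome 7 probes were above the others, at 0.22 against 0.15 between -1 and -0.5 (75 probes) and at 0.14 against 0.03 between -0.5 and 0 (29 probes). The part of the dye, the slide or the input's origin in this was not tested.

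**Figure D5:**
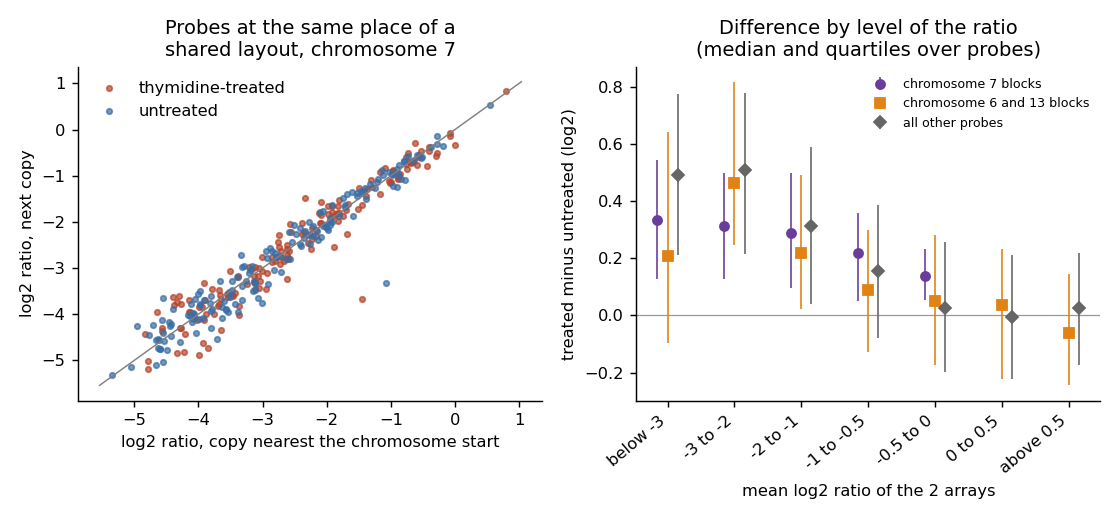
Left, ratio of each probe in the first copy of a repeated layout (x axis) and in the next copy (y axis), treated and untreated cells, with the line of equality. Right, difference between treated and untreated cells by mean ratio, as medians with quartiles over probes for classes of at least 10 probes. The median difference of all other probes is 0.49 below -3, 0.51 between -3 and -2 and 0.03 between -0.5 and 0.

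Of the 204 measured regions 9 were higher in treated cells, by a median of 0.5 or more with at least 80% of probes of that sign, where 0.706% of all regions were. None was lower, where 0.0558% of all regions were. The highest 3 lay in the second chromosome 7 block. The region chr7:23685328-23687032 had a ratio of -3.49 in treated and -3.87 in untreated cells and a median difference of 0.59 (SD 0.31 over 8 probes). The region chr7:21059852-21061010 had -2.85 in treated and -2.93 in untreated cells and a median difference of 0.58 (SD 0.36 over 5 probes). The median difference is taken over the differences of single probes, and here the 2 region medians lay much closer together than it. The region chr7:22919338-22920550 had -2.37 in treated and -2.62 in untreated cells and a median difference of 0.57 (SD 0.33 over 5 probes), but its copy of the same layout from 20724015 had a difference of 0.26. Each of these 3 had only 2 probes with both channels well above background on both arrays. In each the median over probes of the input difference was below 0, at -0.39, -0.31 and -0.26 in that order. In the second of them the median input itself was 1.01 in treated and 0.98 in untreated cells. The lowest differences were -0.31 at chr6:56851852-56852909, with ratios of 0.01 in treated and 0.34 in untreated cells, -0.27 at chr6:90127628-90129191, with -0.64 in treated and -0.16 in untreated cells, and -0.24 at chr6:57641583-57643195, given above. The count of higher regions was 9 as well at gaps of 500 and 2000 bp, but 0 regions of the blocks were counted with normexp background correction, with quantile normalisation or in the authors' deposited table.

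The chromosome 7 blocks resembled the longest low runs on other chromosomes in the ratio and in the input. The run of 31 regions at chr2:174892772-177814338 had medians of -2.05 in treated and -2.38 in untreated cells, the run of 18 regions at chr4:60015121-61715954 had -2.17 in treated and -2.67 in untreated cells, and the run of 15 regions at chrX:24728134-32132718 had -2.05 in treated and -2.39 in untreated cells. Their input was above the array median as well, at 0.58 in treated and 0.96 in untreated cells on chromosome 2, at 0.85 in treated and 1.21 in untreated cells on chromosome 4, and at 1.32 in treated and 1.44 in untreated cells on chromosome X. Probes were longer in the chromosome 7 vomeronasal blocks, with a median of 58.5 bases, against 51, 50 and 53 bases in the runs on chromosomes 2, 4 and X. The median difference was 0.24 and 0.31 in the chromosome 7 blocks, against 0.38, 0.29 and 0.18 in the runs on chromosomes 2, 4 and X. Regions counted as higher in treated cells numbered 8 of 120 in the chromosome 7 blocks, against 0.706% of all regions. In the runs on chromosomes 2, 4 and X they numbered 4 of 31, 0 of 18 and 0 of 15. All of these runs were defined by low ratios on the same arrays.

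The chromosome 7 blocks were also the lowest of the 5 blocks in the authors' deposited table of log ratios, for which no source at hand states the log base or the normalisation. Its medians were -1.90 in treated and -1.68 in untreated cells in the first chromosome 7 block and -2.10 in treated and -2.003 in untreated cells in the second. In the first chromosome 6 block they were -0.27 in treated and -0.24 in untreated cells, in the second -0.30 in treated and -0.29 in untreated cells, and in the chromosome 13 block -0.28 in treated and -0.27 in untreated cells. All other probes had -0.05 in treated and 0.01 in untreated cells.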

How the data were processed

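DNA from 2 cultures was measured by methylated DNA immunoprecipitation on 2-colour Agilent arrays, 1 per group. Agilent Feature Extraction 11.0.1.1 produced the scanner files on an mm9 grid, per the file headers. The deposited intensity values are processed signals, background-subtracted and scaled between dyes per the file headers. The deposited log10 ratios equalled log10 of the processed red over green signal within 1e-06 at 96.9% of probes on the treated and 97.4% on the untreated array. The authors' deposited table holds log ratios, taken here as log2 values with that base unstated. It correlated at 0.88 on the treated and 0.90 on the untreated array with the scanner ratios, with slopes of 0.54 and 0.50, in a positive direction, and its column medians were -0.02 and -0.01.

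From the processed signals log2(Cy5/Cy3) was computed (Python 3.11.15, numpy 2.4.6, pandas 2.3.3) and centred on each array's median, with neither loess nor quantile scaling. From 180465 spots, 5827 control spots and 57 probes with an outlier flag, none of these in the blocks, were left out, as were probes whose input was not well above background on both arrays. Block values are medians over probes, and a region's value is the median over its kept probes. The region that crosses the upper bound of the second chromosome 6 block was counted in the block. Normexp (offset 50) and loess used limma 3.58.1 in R 4.3.3. The number of arrays limits the precision.

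The blocks, gene lists and comparison runs were chosen with earlier results of these data known. Named regions are the 2 highest and 2 lowest per block, the 3 highest and 3 lowest differences and the regions at the edges. Named promoters are those with most and fewest CG per chromosome. The comparison of layouts, the promoter copies, the classes of length and level and the joint values for chromosome 7 and for chromosomes 6 and 13 were chosen after values were seen. Alternatives were the background correction, loess, quantile and equal-spread scaling, the filters, 1 probe length, the gap and size rules, removal of the level trend in windows of 2000 probes, the precipitate alone and the authors' table.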

Additional observations from a re-analysis of the deposited data

How the results depend on the processing

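No paired analysis was possible because each group has 1 array. The chromosome 7 blocks stayed below the other blocks in the ratio under all alternatives run, with medians of the first block between -2.47 and -1.12 in treated and -2.43 and -1.29 in untreated cells, and of the second between -2.87 and -1.30 and between -2.93 and -1.51. Over all blocks the median ratio was -1.41 in treated and -1.71 in untreated cells. It was -0.74 and -0.89 with normexp, -1.13 and -1.38 with loess, -1.58 and -1.55 with quantile normalisation, -1.09 and -1.32 with no filter, -0.71 and -0.84 with both channels above background (centred again on such probes), -1.27 and -1.23 in the authors' deposited table after centring, and -0.35 and -0.50 over probes of 45 bases, of which chromosome 7 holds few. With the precipitate raised to the lowest signal well above background it was -0.93 and -1.24, and with the first copy of each layout -1.17 and -1.45. The last 2 settings were chosen after seeing the data.

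The median difference over all blocks, 0.22, was -0.054 with quantile normalisation, -0.028 in the authors' deposited table after centring, -0.068 without the level trend and 0.015 for the precipitate alone, and 0.09 to 0.24 otherwise. The 9 regions counted as higher became 4 with loess, 4 with no filter, 3 with both channels above background, 65 at a size of 0.3, 7 with the precipitate raised and 6 with 1 copy per layout, and the count was 9 with gaps of 500 and 2000 bp. The count was 0 with normexp, quantile or equal-spread scaling, probes of 45 bases, the level trend removed, the precipitate alone, the authors' table, or a size of 1. No region was counted as lower in any setting. The difference of the region from 22879276 on chromosome 7, 0.50, was -0.011 in the authors' deposited table after centring. The cause of these changes was not tested. Dim precipitate signals limit the low end of the ratio.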
